A study of Mus musculus with 24 samples.

Results

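The colon of vitamin D-deficient mice was compared with that of mice given calcitriol, the active hormone 1,25-dihydroxyvitamin D3 (1,25D3). The comparison covers every gene with at least 1 FPKM (fragments per kilobase of transcript, scaled to library size) in 3 or more of 8 colon libraries, which held for 12746 of the 21441 genes in the table. The question, as the series title puts it in other terms, is which genes respond to vitamin D along the intestine, here in its distal end. Just inside this limit lay 6230409E13Rik, with a third-highest value of 1.002 FPKM (0.6872 to 1.103 over the libraries), and just outside lay Hmcn1, with 0.9998 FPKM (0.5436 to 1.193).

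All mice were wild type and of the C57BL6J strain, and both groups had 4 colon samples. The treated group received calcitriol by injection 3 times, each dose being 1 ng per g body weight, with the injections timed 48, 24 and 6 h ahead of tissue collection. For the deficient group the labels state no treatment. Ages in the labels ran from 10 to 14 in treated and from 10 to 13 in deficient mice, with no unit, and 2 of 4 treated and 1 of 4 deficient mice were female. Poly(A) RNA was sequenced from tissue that holds every cell type of the colon, so fewer cells of a type and less RNA per cell cannot be told apart. The labels do not say how mice were paired or housed, so p-values measure the spread between these samples.

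Calcitriol acts through the vitamin D receptor, a nuclear receptor that binds DNA together with a retinoid X receptor, typically at repeats of a short hexamer, and changes transcription of nearby and distant genes. In intestinal epithelium the best known targets carry calcium across the cell: an apical channel (Trpv6), a cytosolic buffer (calbindin-D9k, from S100g) and a basolateral pump (from Atp2b1). Cyp24a1, the enzyme that breaks the hormone down, is the classical feedback target of the receptor in most tissues that express it.

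Libraries are named by group and by the number in their column. The number is serial for treated 1 and deficient 1, 2 and 3, and has 4 digits for treated 3xD5711, 3xD5720 and 3xD5734 and for deficient minusD5718. Deficient 1, 2 and 3 are the columns named Vehicle, so the naming also splits the deficient group by column label. This naming nearly coincides with treatment, and also with depth, since whole reads recovered from the FPKM values came to 17995684 to 25705114 in the 4-digit and 35612875 to 36477646 in the serial libraries. Xist exceeded Ddx3y in 3 of the 4-digit and 0 of the serial libraries. Differences within each naming scheme (1 treated against 3 deficient libraries for serial names, 3 against 1 for 4-digit names) are therefore given, without a test, beside the pooled ones for the calcium transport and hormone breakdown genes and wherever the direction of a described list or gene turned within a scheme, and for some others. Hoxb13 (90.8 to 239 FPKM) and Hoxd13 (7.97 to 29.9 FPKM), which mark the distal gut, were present in every colon library, while Hoxd13 reached at most 0.0796 FPKM in the duodenum and 0.076 FPKM in the ileum, and Gata4, which marks the proximal small intestine, reached at most 0.629 FPKM in the colon. Both treated 1 and treated 3xD5720 stood apart, with a Pearson correlation of 0.907 across tested genes, the lowest of any pair. In treated 1, ribosomal protein genes held 22.7% of all FPKM against 14.9% to 17.1% in the other libraries. In treated 3xD5720 the 16 exocrine pancreas markers summed to 36786 FPKM. The same sum was 6512 in deficient 1 and 5594 in deficient 3, and 167 to 365 in the remaining libraries. None of the 16 markers was at 0 in all 8 colon libraries. Smooth muscle markers summed to 821 FPKM in treated 3xD5720 and 3882 in treated 1, the extremes over the 8 libraries.

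**Figure D1:**
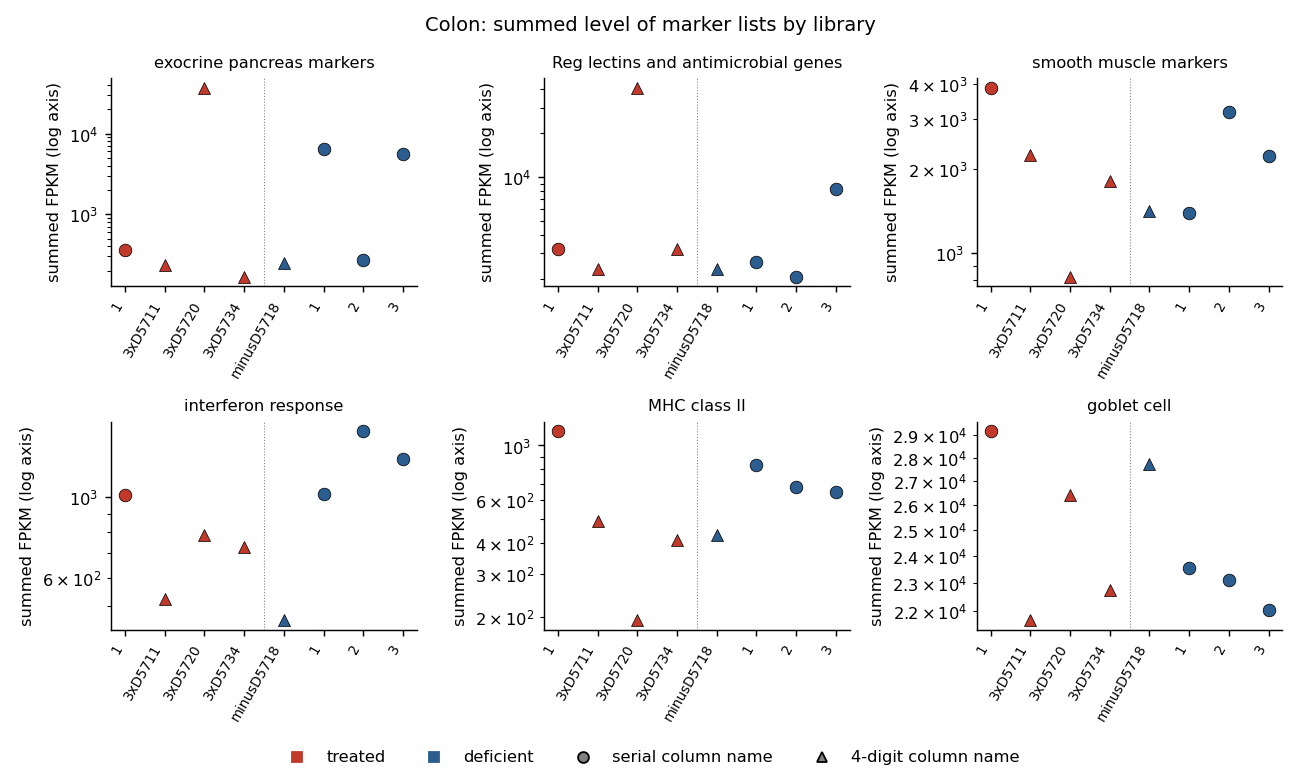
Summed FPKM (log axes, each panel with its own range) of 6 lists of marker or pathway genes in each of the 8 colon libraries, red for treated and blue for deficient, circles for serial and triangles for 4-digit names. Exocrine pancreas markers stood at 36786 FPKM in treated 3xD5720 and at 167 to 365 FPKM in 5 libraries, and interferon response genes followed the naming scheme, with the 4 serial libraries highest.

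After 3 doses of calcitriol, the genes that stood furthest above the deficient level were those of calcium transport and hormone breakdown, but with 4 libraries a group no gene passed the test over all genes. Limma called 0 of 12746 genes at a Benjamini-Hochberg adjusted p under 0.05 (0% in either direction), and the smallest adjusted p was 0.109, shared by Fermt3, Trpv6 and Atp2b1. At an unadjusted p under 0.05, 372 genes (2.92%) were higher and 374 (2.93%) lower in treated libraries. In 283 genes (2.22%) all treated libraries lay above all deficient ones, and in 296 genes (2.32%) all lay below. Among genes with groups apart in this way, 20 were over 2-fold higher on the log2(FPKM + 1) scale and 9 over 2-fold lower. An exact two-sided permutation test over the 70 splits of 8 libraries cannot go below p = 0.0286, the value of every gene whose groups do not overlap, so it cannot pass a correction over all genes. Some alternative fits did call genes: array weights, which give treated 1 a weight of 0.162, called 5 higher and 3 lower, and a joint fit with the other tissues called 4 higher and 1 lower.

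**Figure D2:**
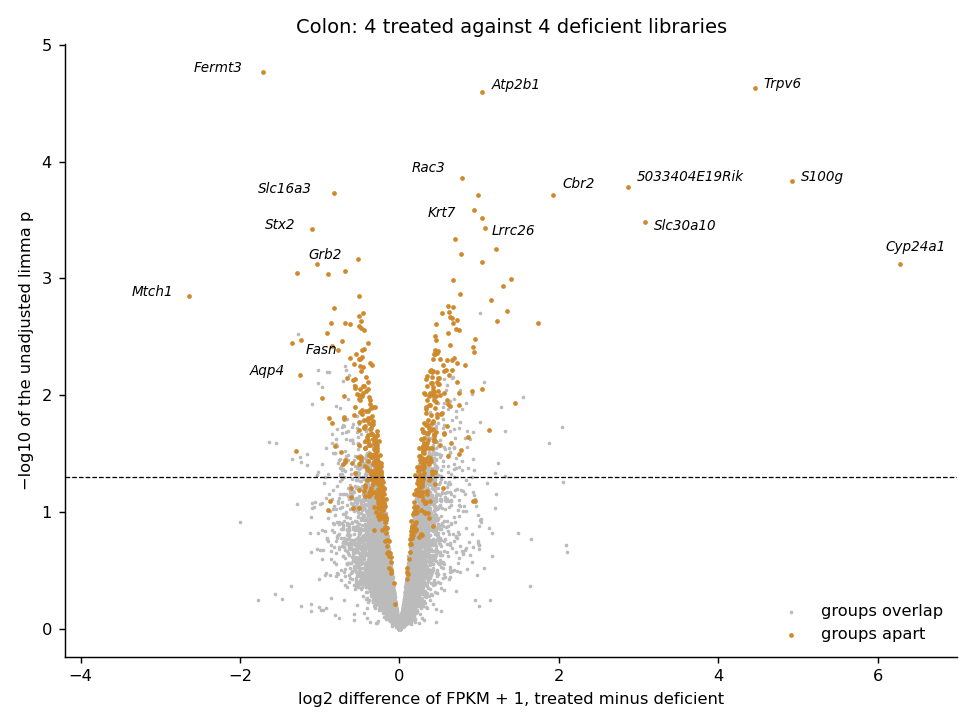
Each point is 1 of 12746 genes, with its log2 difference of FPKM + 1 (treated minus deficient) on the horizontal axis and −log10 of its unadjusted limma p on the vertical axis. Orange points are the 283 and 296 genes whose groups do not overlap, the dashed line marks an unadjusted threshold of 0.05, and Cyp24a1, S100g and Trpv6 lie furthest to the right.

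The promoters of 3 genes on the labels' quantitative PCR panel are shown first, because all treated libraries lay above all deficient ones in each. Each line gives the 250 bases before the transcription start, 5′ to 3′ on the gene's own strand, from RefSeq promoter windows on GRCm38.p6, with receptor half-sites in capitals. A half-site was any of AGGTCA or AGTTCA or GGGTCA or GGTTCA, on either strand, and a site on the opposite strand appears as its reverse complement. Of 10 genes looked for, 8 matched a window, and Cyp24a1 and 5033404E19Rik were not matched.
S100g (chrX:162964600-162964849, minus strand): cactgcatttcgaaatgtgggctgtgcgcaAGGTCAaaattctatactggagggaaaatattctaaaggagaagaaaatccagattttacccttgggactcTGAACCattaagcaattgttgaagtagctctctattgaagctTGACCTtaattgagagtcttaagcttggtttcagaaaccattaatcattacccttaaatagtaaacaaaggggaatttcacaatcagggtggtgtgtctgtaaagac
Trpv6 (chr6:41636406-41636655, minus strand): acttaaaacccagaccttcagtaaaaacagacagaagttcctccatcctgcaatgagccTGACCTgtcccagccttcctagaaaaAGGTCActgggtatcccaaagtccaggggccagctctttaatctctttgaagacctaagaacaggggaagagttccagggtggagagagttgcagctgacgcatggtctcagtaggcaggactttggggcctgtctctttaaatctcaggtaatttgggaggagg
Slc30a10 (chr1:185454598-185454847, plus strand): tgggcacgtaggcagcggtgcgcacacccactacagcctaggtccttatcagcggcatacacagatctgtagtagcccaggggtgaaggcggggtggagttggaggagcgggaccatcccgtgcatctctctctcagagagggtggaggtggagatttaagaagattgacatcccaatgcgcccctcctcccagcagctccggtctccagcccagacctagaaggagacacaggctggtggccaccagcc
S100g holds 3 half-sites, starting 220, 149 and 107 bases before the start, and Trpv6 holds 2, starting 191 and 165 bases before it. Slc30a10 holds none. At least 1 half-site is found in 38.6% of the 32851 windows of this length, so its presence is common. A pair of half-sites in the same orientation with 3 bases between them, the spacing of the classical receptor element, is in 0.0396% of windows and in none of the 9 windows of the 8 genes. These are matches of letters within a short window, and no binding was measured here.

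Trpv6 (chromosome 6, 41570620 to 41586404 on NCBIM37, the assembly called mm9), the apical channel through which calcium enters the epithelium, stood at 57.2, 69.5, 35.8 and 111 FPKM in treated 1, 3xD5711, 3xD5720 and 3xD5734. In deficient minusD5718, 1, 2 and 3 it stood at 1.22, 4.83, 4.37 and 0.0461 FPKM. The groups lay far apart, and the lowest treated library exceeded the highest deficient one several times over. Its group means were 68.4 ± 31.7 and 2.62 ± 2.35 FPKM (SD, n = 4 each), and its log2 difference was 4.46 ± 0.56 (SE, adjusted p = 0.109 by limma). The difference was 4.18 within serial and 4.90 within 4-digit names, and 3.96 to 4.79 with single libraries left out. Deficient 3 rests on 4 recovered reads, against 1472 to 5794 in treated libraries.

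S100g (chromosome X, 159399924 to 159402531), the gene of the cytosolic calcium buffer calbindin-D9k, stood at 5542, 4329, 1898 and 4367 FPKM in treated 1, 3xD5711, 3xD5720 and 3xD5734. Deficient minusD5718, 1, 2 and 3 had 131, 198, 394 and 21.2 FPKM. Treated libraries thus all lay above deficient ones, and the deficient libraries were spread more widely in relative terms than the treated ones. The means were 4034 ± 1531 and 186 ± 157 FPKM (SD, n = 4 each), a log2 difference of 4.93 ± 0.78 (SE, adjusted p = 0.275). Within serial names it was 5.52, and within 4-digit names 4.64. S100g lies opposite part of Ctps2 on the other strand, and the labels do not state that counting used strand.

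Atp2b1 (chromosome 10, 98377786 to 98488777), the plasma membrane pump that exports calcium at the basolateral side, differed by less but with little spread. It stood at 103, 119, 108 and 127 FPKM in treated 1, 3xD5711, 3xD5720 and 3xD5734 and at 67.8, 52.2, 53.9 and 47.7 FPKM in deficient minusD5718, 1, 2 and 3. The groups did not overlap. Mean levels were 114 ± 10.7 and 55.4 ± 8.66 FPKM (SD, n = 4 each), and the log2 difference was 1.04 ± 0.13 (SE, adjusted p = 0.109), or 0.99 and 0.79 within serial and 4-digit names. With array weights Atp2b1 passed (adjusted p = 0.00325).

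Cyp24a1 (chromosome 2, 170308208 to 170322645), the hormone-degrading hydroxylase, had the largest log2 difference of the panel genes. In relative terms it also had their widest spread among treated libraries. Treated 3xD5711, 3xD5720 and 3xD5734 had 108, 370 and 277 FPKM, while treated 1 had 2.67 FPKM. Deficient minusD5718, 1, 2 and 3 had 0.0183, 0.0108, 0.0107 and 0.0814 FPKM, which stand for 1, 1, 1 and 8 recovered reads, against 228, 5452, 17214 and 16345 reads in treated 1, 3xD5711, 3xD5720 and 3xD5734. The groups did not overlap, and treated 1 lay well below the other treated libraries. The log2 difference was 6.28 ± 1.26 (SE, adjusted p = 0.456), and the added pseudocount holds it down because the deficient level is far under 1 FPKM. On recovered reads, voom gave 11.2. Treated 1 set the size of the error: without it the difference was 7.76 with an adjusted p of 0.0005, while within serial names, where it is the only treated library, it was 1.83. Cyp24a1 overlaps Pfdn4 on the other strand.

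Slc30a10 (chromosome 1, 187278727 to 187292641), which exports manganese from cells, stood at 42.8, 66.5, 81.7 and 156 FPKM in treated 1, 3xD5711, 3xD5720 and 3xD5734. Its deficient levels were 10.97, 8.74, 18.4 and 2.31 FPKM in minusD5718, 1, 2 and 3, and the groups were apart. Means of 86.7 ± 48.8 and 10.1 ± 6.65 FPKM (SD, n = 4 each) gave a log2 difference of 3.08 ± 0.55 (SE, adjusted p = 0.345), with 2.35 and 3.00 within serial and 4-digit names.

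Slc37a2 (chromosome 9, 37036734 to 37063323), a sugar-phosphate exchanger of the endoplasmic reticulum membrane, did not separate. Treated 1, 3xD5711, 3xD5720 and 3xD5734 had 33.8, 28.5, 8.12 and 39.0 FPKM, and deficient minusD5718, 1, 2 and 3 had 74.6, 46.6, 45.7 and 15.1 FPKM. The groups overlapped, and the log2 difference of -0.71 ± 0.56 (SE, adjusted p = 0.90) was 0.08 within serial and -1.77 within 4-digit names. Trpv5, the renal relative of Trpv6, lay under the filter, at 0.0152 to 0.0768 FPKM in treated libraries and at most 0.0138 FPKM in deficient ones. Vdr (chromosome 15, 97684856 to 97741061), the receptor gene, stood at 101, 125, 113 and 139 FPKM in treated 1, 3xD5711, 3xD5720 and 3xD5734 and at 141, 137, 110 and 80.2 FPKM in deficient minusD5718, 1, 2 and 3, overlapping throughout. Its log2 difference was 0.05 ± 0.19 (SE, adjusted p = 0.976), with a sign that depended on the fit.

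**Figure D3:**
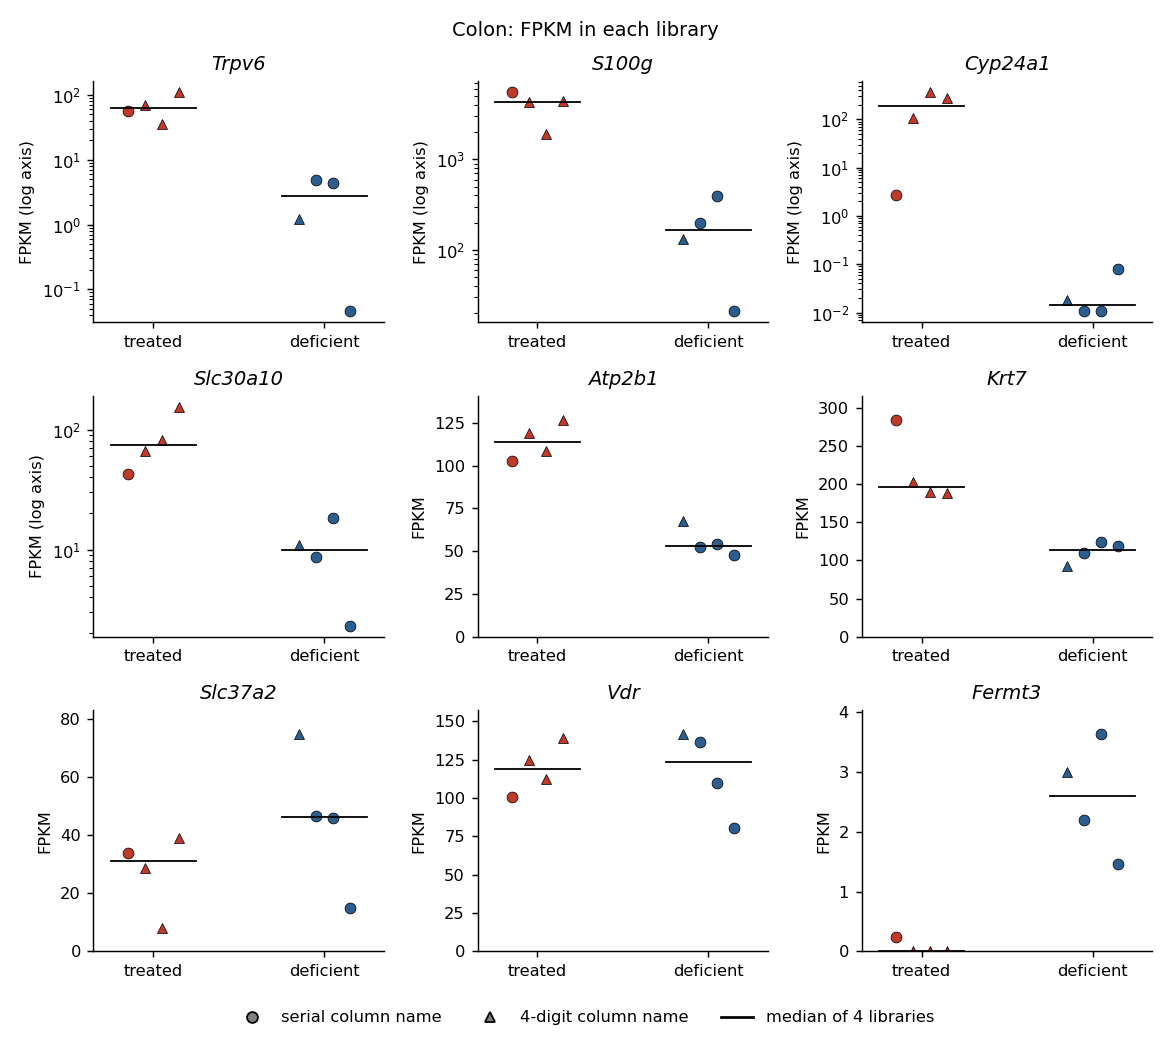
FPKM of 9 genes in each colon library, with log axes in the panels of Trpv6, S100g, Cyp24a1 and Slc30a10 and axes from 0 in the others. Circles are serial and triangles 4-digit names, lines are medians of 4 libraries, and the groups do not overlap for Trpv6, S100g, Cyp24a1, Slc30a10, Atp2b1, Krt7 and Fermt3 while Slc37a2 and Vdr overlap.

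The wider calcium transport list had 10 tested members, of which 0 passed the test. It had 6 positive and 4 negative differences, with 3 (Trpv6, S100g and Atp2b1) higher at an unadjusted p under 0.05 (2.92% over all genes). Its median log2 difference was 0.19, against -0.01 over all genes tested (6028 positive and 6718 negative), and it was 0.10 within either naming scheme. Outside those 3 genes the differences were small. Atp2a3, a calcium pump of the endoplasmic reticulum, had all treated libraries (157 to 189 FPKM) below all deficient ones (190 to 242 FPKM) with a log2 difference of -0.26, and Cldn2, a claudin that forms cation pores, stood at 0.38 (-0.53 within serial names) with overlapping groups; both were picked after their values were seen. Calb1, Casr and Slc8a1 lay under the filter.

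Among the receptor, its partners, coregulators and the enzymes of vitamin D metabolism, 0 of 13 tested genes passed, 6 were positive and 7 negative, with a median of -0.01 (-0.16 and -0.17 within serial and 4-digit names). Cyp24a1 alone had an unadjusted p under 0.05 (2.92% over all genes were higher at that limit). Ncoa3, a coactivator of nuclear receptors, had a log2 difference of -0.31 ± 0.15 with overlapping groups. Among 17 zinc and manganese transporters and metallothioneins 9 were positive and 8 negative (median 0.01, with -0.04 within serial and 0.08 within 4-digit names). Only Slc30a10 and Slc39a8, which imports zinc and manganese, reached an unadjusted p under 0.05, both higher (2.92% over all genes). Slc39a8 stood at 15.5 to 41.2 FPKM in treated and 12.6 to 18.01 FPKM in deficient libraries, a log2 difference of 0.75 ± 0.26 (adjusted p = 0.846). The 4 sugar-phosphate transporters of the Slc37 family split evenly, with Slc37a1 at 0.37 (-0.03 within 4-digit names) and Slc37a3 at -0.56.

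Outside calcium handling, the genes with the smallest p among those higher in treated colons came from several families. 5033404E19Rik, a gene known by its clone name, stood at 70.4, 50.9, 55.4 and 45.7 FPKM in treated 1, 3xD5711, 3xD5720 and 3xD5734 and at 7.37, 9.95, 13.3 and 1.61 FPKM in deficient minusD5718, 1, 2 and 3. The groups were well apart, and the treated levels varied little. Its log2 difference was 2.87 ± 0.46 (SE, adjusted p = 0.275), with 3.26 and 2.62 within serial and 4-digit names. It passed without deficient 3, at 2.35 (adjusted p = 0.0431), and in the joint fit of all tissues (adjusted p = 0.00038).

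Cbr2 (chromosome 11, 120590803 to 120593428), a carbonyl reductase, had 124, 81.5, 46.6 and 43.5 FPKM in treated 1, 3xD5711, 3xD5720 and 3xD5734 against 15.5, 15.5, 22.6 and 15.2 FPKM in deficient minusD5718, 1, 2 and 3. The groups were apart and treated 1 was the highest library, and the log2 difference was 1.93 ± 0.32 (SE, adjusted p = 0.275). Krt7 (chromosome 15, 101241474 to 101260744), a keratin of simple epithelia, had 284, 202, 189 and 188 FPKM in the treated libraries in the same order and 93.2, 110, 124 and 118 FPKM in the deficient ones. The 2 groups were apart by a margin wider than the range of the deficient libraries. Its log2 difference of 0.94 ± 0.16 (SE, adjusted p = 0.328) was 1.16 with the naming scheme in the fit and passed there (adjusted p = 0.0345).

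Lrrc26, which encodes an auxiliary subunit of the calcium-activated potassium channel BK, stood at 101 to 129 FPKM in treated and 39.3 to 71.6 FPKM in deficient libraries (log2 difference 1.04 ± 0.18). Rac3, a small GTPase, stood at 8.92 to 11.3 against 4.63 to 5.89 FPKM (0.78 ± 0.12), and Zfp187, a zinc finger gene, at 7.92 to 12.9 against 4.10 to 5.16 FPKM (0.99 ± 0.16). H2-Q1, a class Ib histocompatibility gene with near-identical neighbours between which reads may be divided, stood at 63.0 to 94.3 against 25.6 to 43.1 FPKM (1.08 ± 0.19). None of these groups overlapped, and adjusted p lay between 0.275 and 0.345. The remaining genes over 2-fold higher with groups apart included Fbp1, a gluconeogenic phosphatase (3.36 to 10.1 against 1.24 to 2.94 FPKM), and Pla2g5, a secreted phospholipase (12.8 to 49.97 against 2.91 to 10.8 FPKM). Arhgef3, Bcl2l15, Cyp2e1 and Inmt, picked after their values were seen, differed by 1.21, 1.30, 1.15 and 1.35 in log2.

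Lower genes were fewer among the large differences and mostly of low level. Fermt3 (chromosome 19, 7073448 to 7093959), the kindlin of blood cells that activates integrins, was listed at 0 in treated 3xD5711, 3xD5720 and 3xD5734 and at 0.244 FPKM in treated 1. Deficient minusD5718, 1, 2 and 3 had 3.00, 2.20, 3.63 and 1.46 FPKM, from 126, 156, 261 and 110 recovered reads. The groups were apart, with a log2 difference of -1.72 ± 0.21 (SE, adjusted p = 0.109), and -1.41 within serial names. Oaz1, a gene used by all cells, was also listed at 0 in 3 colon libraries, all with 4-digit names, and reached at most 1.72 FPKM elsewhere. Whether an exact 0 in this table is a failed estimate was not tested. Fermt3 overlaps Trpt1 on the other strand.

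Slc16a3 (chromosome 11, 120809794 to 120822182), the lactate exporter MCT4, stood at 3.63, 2.87, 2.66 and 2.33 FPKM in treated 1, 3xD5711, 3xD5720 and 3xD5734 and at 5.34, 6.14, 6.20 and 5.55 FPKM in deficient minusD5718, 1, 2 and 3. The groups were apart with narrow ranges, at a log2 difference of -0.82 ± 0.14 (SE, adjusted p = 0.275). Grb2, an adaptor of receptor tyrosine kinases, ranged from 24.3 to 30.2 FPKM in treated and 37.4 to 41.7 FPKM in deficient libraries (-0.53 ± 0.10), and Plec, the cytoskeletal linker plectin, from 28.2 to 34.3 against 43.3 to 65.7 FPKM (-0.68 ± 0.14). Spaca4 (24.6 to 30.1 against 35.7 to 44.7 FPKM) and Cops7b, of the COP9 signalosome (1.65 to 3.36 against 4.54 to 6.62 FPKM), were likewise apart. Mtch1, a protein of the outer mitochondrial membrane, stood at 8.58, 2.43, 2.14 and 0.0603 FPKM in treated 1, 3xD5711, 3xD5720 and 3xD5734 and at 12.8 to 26.5 FPKM in deficient libraries, a log2 difference of -2.63 ± 0.58. Stx2 and Aebp1 were listed at 0 in 1 and 3 treated libraries, with 1.78 to 2.19 and 1.60 to 2.29 FPKM in deficient ones, and 4933407H18Rik stood at 0.662 to 1.66 against 2.73 to 4.04 FPKM. Adjusted p for the genes of this paragraph lay between 0.275 and 0.599.

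Barrier and transport genes differed one by one rather than as groups. Of 17 claudin and tight junction genes 5 were positive and 12 negative (median -0.04). Cldn15, which forms sodium-permeable pores, alone had an unadjusted p under 0.05 (2.92% over all genes were higher at that limit). Cldn15 stood at 132, 140, 95.2 and 133 FPKM in treated 1, 3xD5711, 3xD5720 and 3xD5734 and at 87.4, 83.0, 81.1 and 94.4 FPKM in deficient minusD5718, 1, 2 and 3. The groups were apart by less than 1 FPKM, and the log2 difference was 0.51 ± 0.14 (adjusted p = 0.713). Cldn8, a sealing claudin of the colon, stood at 15.3 to 42.6 and 20.3 to 51.5 FPKM, overlapping.

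Among 25 genes of colonic ion and water transport 14 were positive and 11 negative (median 0.08, but -0.18 within serial names). Aqp4, a basolateral water channel, had 3.99, 6.32, 15.8 and 11.2 FPKM in treated 1, 3xD5711, 3xD5720 and 3xD5734 and 16.4, 26.0, 18.1 and 25.4 FPKM in deficient minusD5718, 1, 2 and 3. The groups were close at their nearest libraries, 15.8 and 16.4 FPKM. Its log2 difference was -1.25 ± 0.36 (adjusted p = 0.742), -2.26 within serial and -0.60 within 4-digit names. Car4, a membrane carbonic anhydrase, stood at 884 to 1303 FPKM in treated and 503 to 1081 FPKM in deficient libraries (log2 difference 0.50 ± 0.25). Slc20a1, a phosphate carrier, stood at 54.8 to 155 against 69.6 to 290 FPKM (-1.04 ± 0.45), and Slc11a2, the apical iron transporter DMT1, at 8.85 to 14.2 against 13.9 to 23.7 FPKM (-0.59 ± 0.20), both overlapping. The phosphate list had 3 of 7 and the iron list 4 of 10 members positive.

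Epithelial cell types showed medians near that of all genes. Goblet cell markers had 6 of 17 positive members (median -0.09), with Atoh1, their lineage factor, at 34.9 to 59.4 FPKM in treated and 32.3 to 42.0 FPKM in deficient libraries (log2 difference 0.43, and -0.01 within serial names) and Klk1 at 1646 to 4277 against 1132 to 1687 FPKM. Enteroendocrine markers had 10 of 14 positive members (median 0.11). Gcg, which encodes the precursor of GLP-1 in L cells, stood at 87.4, 138, 119 and 122 FPKM in treated 1, 3xD5711, 3xD5720 and 3xD5734 and at 50.3, 72.5, 74.4 and 78.6 FPKM in deficient minusD5718, 1, 2 and 3. The groups were apart, with a log2 difference of 0.75 ± 0.18 (adjusted p = 0.635), although Chga, a general marker of these cells picked after its values were seen, overlapped (76.8 to 106 against 78.9 to 111 FPKM).

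Tuft cell markers had 4 of 9 positive members (median -0.01, with -0.18 within serial names), with Ptgs1 at 0.21, and colonocyte surface and regional genes 7 of 16 (median -0.03, with 0.24 within serial and -0.22 within 4-digit names). Stem cell and Wnt target genes had 3 of 14 positive members and a median of -0.17, and -0.23 within both naming schemes. Ephb3, a Wnt-driven receptor of the crypt base, stood at 4.20 to 7.13 FPKM in treated and 6.82 to 9.01 FPKM in deficient libraries (-0.43 ± 0.16). Proliferation genes had 4 of 24 positive members and a median of -0.15, which was -0.32 within serial and 0.33 within 4-digit names, and Plk1, a mitotic kinase, stood at -0.23 (0.10 within 4-digit names). Of the cell cycle inhibitors and Myc, 9 of 16 were positive (median 0.19, but -0.07 within 4-digit names), with Gadd45a, a damage-response gene, at 0.52 ± 0.22 (-0.05 within 4-digit names) and Myc at 0.33 ± 0.16.

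Interferon response genes had 1 of 33 positive members and a median of -0.55, and 3 were lower at an unadjusted p under 0.05 (2.93% over all genes). The median was -0.51 within serial but 0.47 within 4-digit names, so the list's direction was not the same in both schemes. Irgm1, an interferon-inducible GTPase, stood at 5.20, 8.70, 7.94 and 7.12 FPKM in treated 1, 3xD5711, 3xD5720 and 3xD5734 and at 8.45, 10.8, 19.2 and 16.4 FPKM in deficient minusD5718, 1, 2 and 3. Deficient minusD5718 lay within the treated range. Irf7, a transcription factor of the type I interferon response, stood at 19.1 to 39.0 against 37.6 to 64.7 FPKM (-0.71 ± 0.25). The list's summed level was highest in the 4 serial libraries (1016 to 1520 FPKM, against 458 to 787 in 4-digit ones). With the naming scheme as a covariate the list's median was 0.03. The part of naming scheme, depth and sex in these values was not tested.

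MHC class II genes had 0 of 9 positive members (median -0.43), but 0.52 within serial and -0.35 within 4-digit names. Their summed level was 1144 FPKM in treated 1 and 195 FPKM in treated 3xD5720, which spans the deficient range of 431 to 831 FPKM. H2-DMb2, which helps load these molecules, stood at 1.68 to 4.77 against 4.07 to 6.41 FPKM. MHC class I and peptide loading genes had 5 of 16 positive members and a median of -0.22, but 0.18 within serial and 0.21 within 4-digit names, H2-Q1 and H2-Q2 (96.4 to 171 against 62.5 to 105 FPKM) among them. T and NK cell markers had 3 of 15 positive members (median -0.28, with 0.29 within serial names), and Il2rb (0.775 to 1.144 against 1.53 to 1.77 FPKM) and Cd247 (0.741 to 1.10 against 1.25 to 1.73 FPKM), both receptor chains of these cells, had groups apart. B and plasma cell markers had 1 of 10 positive members (median -0.41, but 0.10 within serial and -0.13 within 4-digit names), with Ms4a1 at 1.16 to 2.83 FPKM in treated and 2.39 to 3.11 FPKM in deficient libraries. Macrophage and myeloid markers had 7 of 15 positive members (median -0.03, but 0.08 within serial and 0.28 within 4-digit names).

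Chemokines had 12 of 20 positive members (median 0.09). Ccl20, which attracts CCR6-bearing lymphocytes, stood at 7.99, 6.40, 4.61 and 5.72 FPKM in treated 1, 3xD5711, 3xD5720 and 3xD5734 and at 4.28, 3.09, 4.07 and 2.63 FPKM in deficient minusD5718, 1, 2 and 3. Its groups were apart by a narrow gap (log2 difference 0.66 ± 0.19, adjusted p = 0.725), and so were those of Ccl25 (10.9 to 18.4 against 4.75 to 10.2 FPKM). Pattern receptors had 8 of 12 positive members (median 0.20, but -0.05 within serial and -0.04 within 4-digit names), with Cd14, a co-receptor for lipopolysaccharide, at 27.1 to 46.9 against 22.1 to 29.5 FPKM and Tlr1 at 23.9 to 38.4 against 17.8 to 25.5 FPKM. Reg lectins and antimicrobial genes had 12 of 15 positive members. Their median was 0.47, with 0.03 within serial and 0.73 within 4-digit names, and 0.07 to 0.76 with single libraries left out. Their sum was dominated by treated 3xD5720, in which Reg3b alone reached 24186 FPKM against 87.2 to 5667 FPKM elsewhere, and this is the library with the highest pancreas marker sum. Defb37, a defensin, stood at 15.7 to 38.2 against 10.5 to 22.7 FPKM, and Reg4, of endocrine and goblet cells, at 92.0 to 360 against 257 to 527 FPKM (log2 difference -0.76, but 0.26 within serial names).

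The lipid lists had medians of opposite sign. Fatty acid oxidation and PPAR target genes had 19 of 20 positive members and a median of 0.25, but 0.02 within serial and 0.04 within 4-digit names. Acaa2, a mitochondrial thiolase, stood at 136 to 180 FPKM in treated and 96.9 to 131 FPKM in deficient libraries, and Acot2, a mitochondrial thioesterase, at 6.77 to 15.4 against 4.48 to 6.97 FPKM. Cholesterol and fatty acid synthesis genes had 3 of 26 positive members and a median of -0.27, with -0.01 within serial and 0.25 within 4-digit names. Srebf2, a main regulator of cholesterol synthesis, stood at 33.3, 38.3, 29.6 and 37.8 FPKM in treated 1, 3xD5711, 3xD5720 and 3xD5734 and at 42.9, 53.0, 50.05 and 52.4 FPKM in deficient minusD5718, 1, 2 and 3. Its groups were apart (-0.50 ± 0.12, adjusted p = 0.623), as were those of Fasn, the fatty acid synthase (11.6 to 17.6 against 19.1 to 24.4 FPKM).

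Other metabolic lists were as follows. Glycolysis and monocarboxylate transport genes had 3 of 20 positive members (median -0.13, with 0.03 within serial and -0.36 within 4-digit names), and 4 were lower at an unadjusted p under 0.05 (2.93% over all genes), Slc16a3 among them. Glutathione and antioxidant genes had 19 of 24 positive members and a median of 0.15 (0.17 and 0.12 within serial and 4-digit names), and 4 were higher at an unadjusted p under 0.05 (2.92% over all genes). Gstp1, a glutathione transferase, stood at 927, 686, 627 and 637 FPKM in treated 1, 3xD5711, 3xD5720 and 3xD5734 and at 431, 485, 470 and 477 FPKM in deficient minusD5718, 1, 2 and 3, apart by more than the range of the deficient libraries. Gsta4, which detoxifies lipid aldehydes, stood at 81.9 to 114 against 47.3 to 82.6 FPKM. Oxidative phosphorylation genes had 22 of 28 positive members (median 0.07, but 0.51 and -0.21 within serial and 4-digit names).

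Nuclear receptor and stress lists had mostly positive members, apart from a near-even endoplasmic reticulum stress list, and some medians turned negative within a naming scheme. All 5 tested C/EBP factors were positive (median 0.19), led by Cebpd, a stress-responsive member, at 41.2, 49.4, 54.8 and 26.4 FPKM in treated 1, 3xD5711, 3xD5720 and 3xD5734 and at 20.5, 26.4, 18.3 and 16.4 FPKM in deficient minusD5718, 1, 2 and 3. Treated 3xD5734 and deficient 1 stood level, and the log2 difference was 1.01 ± 0.23 (adjusted p = 0.619), 1.01 and 0.98 within the schemes. Glucocorticoid-responsive genes had 10 of 11 positive members (median 0.37, -0.18 within serial names), with Klf9, a hormone-responsive transcription factor, at 36.2 to 45.0 against 21.9 to 33.2 FPKM. Bile acid genes had 5 of 6 positive members and a median of 0.39, but -0.09 within serial and -0.05 within 4-digit names, with Ostb, a subunit of the basolateral bile acid exporter, at 195 to 414 against 98.6 to 226 FPKM and Nr1h4, the bile acid receptor FXR, at 56.4 to 151 against 53.4 to 105 FPKM (log2 difference 0.53, and -0.01 within serial names). Vitamin A genes had 13 of 16 positive members (median 0.22), while Rara, a retinoic acid receptor, stood at 3.87 to 6.72 against 5.91 to 8.12 FPKM. Endoplasmic reticulum stress genes had 11 of 21 positive members (median 0.02), with Herpud1, a degradation factor of that organelle, at 83.9 to 183 against 49.8 to 87.0 FPKM.

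In the stromal lists, decorin was the 1 gene with groups apart (2.22% over all genes had treated above). Fibroblast and matrix markers had 4 of 15 positive members (median -0.18, but 0.06 within 4-digit names), yet Dcn, the proteoglycan decorin, stood at 213, 221, 154 and 160 FPKM in treated 1, 3xD5711, 3xD5720 and 3xD5734 and at 108, 93.7, 134 and 101 FPKM in deficient minusD5718, 1, 2 and 3. Its log2 difference of 0.76 ± 0.17 (adjusted p = 0.599) was opposite to that of Col5a1, a fibrillar collagen chain (3.30 to 5.30 against 4.70 to 9.31 FPKM). Adipocyte markers had 7 of 10 positive members and a median of 0.37 (0.53 and 0.43 within the schemes), with Fabp4, a fatty acid binding protein, at 214 to 314 against 113 to 218 FPKM and Cfd, the protease adipsin, at 35.3 to 52.8 against 17.6 to 41.6 FPKM. Their summed level was 323 to 448 FPKM in treated and 173 to 319 FPKM in deficient libraries. Enteric neuron and glia markers had 15 of 17 positive members (median 0.11), smooth muscle markers 9 of 14 (0.01, with 0.77 within serial names) and endothelial markers 3 of 12 (-0.14, with 0.02 within 4-digit names), Lyve1 of lymphatic vessels standing at 0.41. Histone genes had 2 of 14 positive members (median -0.31), Hist1h2ac among the lowest at -1.16 ± 0.46. Exocrine pancreas markers had 0 of 16 positive members (median -0.97), but -4.01 within serial and 2.19 within 4-digit names.

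Across the 48 lists with at least 5 tested members, 26 had a positive and 22 a negative median. In 21 lists the pooled median and both within-scheme medians had the same sign, in 21 the 2 schemes had opposite signs, and in 6 the schemes shared a sign that the pooled median did not have. The lists of calcium transport, adipocyte markers, glutathione genes and stem cell genes are among the first 21, and those of interferon response, MHC class II, proliferation and cholesterol synthesis are among the second 21. The first 21 also hold the PCR panel and a list of responders named with earlier results of these data known (median 0.86). Its shared sign is therefore no separate evidence. Some medians of the first 21 lie close to 0, such as -0.01 for the vitamin D receptor and metabolism list and 0.01 for smooth muscle markers. The 6 were pattern receptors, MHC class I, macrophage markers, bile acid genes, xenobiotic metabolism and the EGF receptor system.

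**Figure D4:**
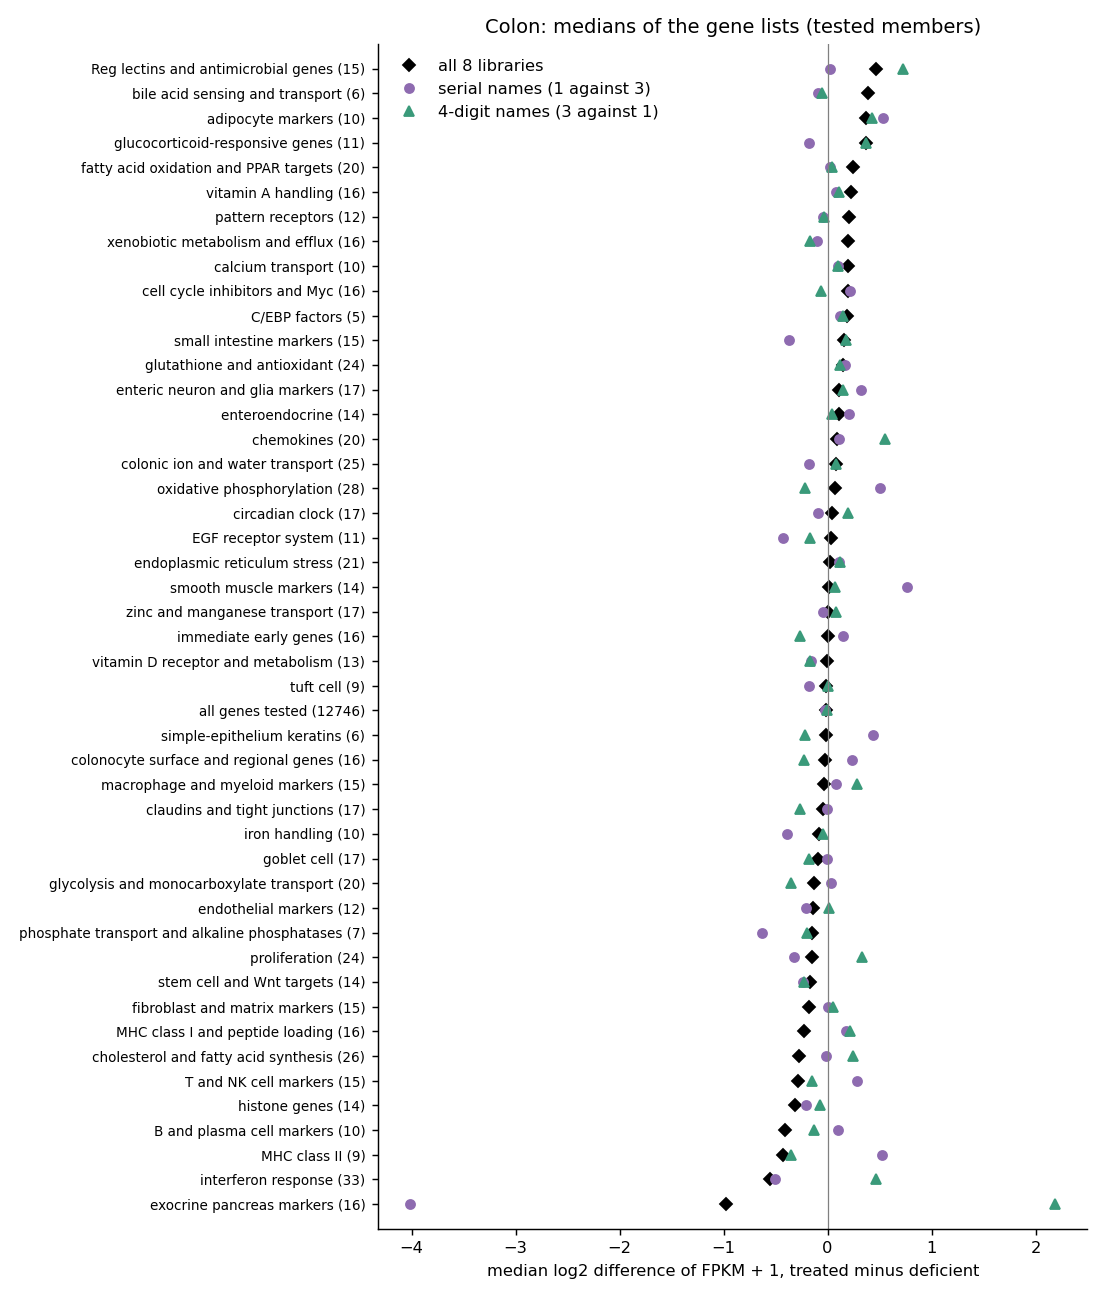
Median log2 difference of FPKM + 1 (treated minus deficient) of gene lists with 5 or more tested members, with their number in brackets. The PCR panel and the list of responders named with earlier results of these data known are left out. Diamonds are medians over all 8 libraries, circles within serial names and triangles within 4-digit names. The interferon median of -0.55 is 0.47 within 4-digit names, and the pancreas median runs from -4.01 to 2.19.

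The colon was then set against the duodenum (8 libraries) and the ileum (7 libraries) by testing the difference of the differences in 1 limma fit of 6 group means. The fit covered the 12746 genes that passed the filter in the colon, so genes present only in the small intestine were not tested. For genes near 0 FPKM in a small intestinal segment, the added pseudocount holds the difference in that segment down. No gene passed in either contrast (0% each), the smallest adjusted p being 0.623 against the duodenum and 0.0926 against the ileum. At an unadjusted p under 0.05, the colon's difference was the higher in 107 genes (0.839%) and the lower in 130 (1.02%) against the duodenum, and the higher in 217 (1.7%) and the lower in 220 (1.73%) against the ileum. The panel genes had these values in the 3 tissues. Trpv6 differed by 4.46 in the colon, 3.00 in the duodenum and 0.25 in the ileum, so that the colon exceeded the ileum by 4.21 ± 0.93 (SE, adjusted p = 0.528). S100g differed by 4.93, 2.41 and 2.87, and Cyp24a1 by 6.28, 7.91 and 4.90, with neither contrast reaching an unadjusted p under 0.05. Slc30a10 differed by 3.08, 1.26 and 2.57, 1.82 ± 0.85 above the duodenum (SE). Slc37a2 differed by -0.71, 1.76 and 0.00, an interaction of -2.47 ± 0.83 against the duodenum (SE).

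Several genes outside the panel had a numerically larger difference in the colon than in either small intestinal segment, though none passed adjustment. 5033404E19Rik differed by 2.87 in the colon, 0.84 in the duodenum and 0.70 in the ileum, Cbr2 by 1.93, 0.04 and 0.43, and Rac3 by 0.78, 0.02 and -0.43. For Rac3 the contrast with the ileum was 1.22 ± 0.20 (SE, adjusted p = 0.0926). H2-Q1 differed by 1.08, 0.21 and 0.26. Krt7 and Lrrc26 had about the same size in colon and duodenum (0.94 and 1.07 for Krt7, 1.04 and 1.13 for Lrrc26) and 0.28 and 0.21 in the ileum. Rhov, also a small GTPase, stood at 1.69 to 3.21 FPKM in treated and 0.82 to 1.29 FPKM in deficient colons and differed by 1.22 from the ileal response (adjusted p = 0.456), and Zfp445, a zinc finger gene (4.25 to 11.3 FPKM against 0 to 2.91), by 2.83. Fermt3 stood at -1.72, 0.07 and -0.41, and BC023829 at 1.01 in the colon against -1.06 in the duodenum and -0.73 in the ileum. The 3 tables were normalized separately, so levels were not compared between tissues apart from the regional markers that checked the tissue.

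**Figure D5:**
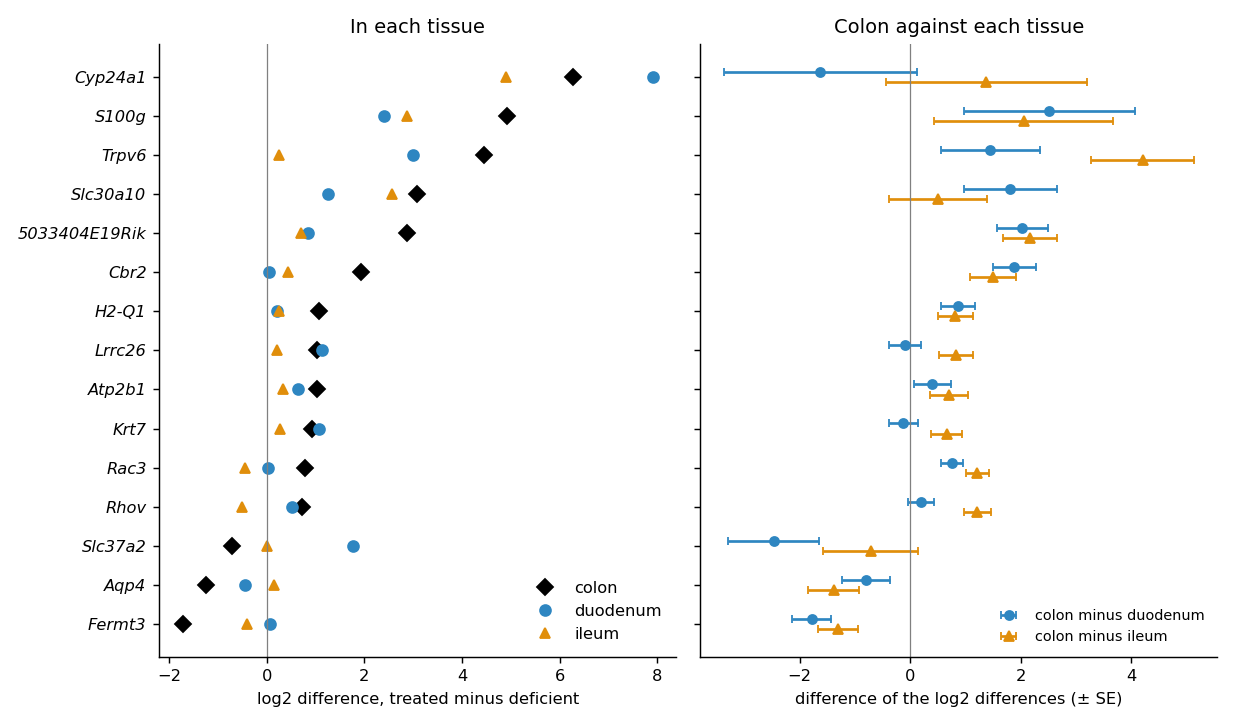
Left, log2 difference of FPKM + 1 (treated minus deficient) of 15 genes in colon, duodenum and ileum; right, the colon difference minus that of each other tissue, with bars of 1 standard error. Trpv6 stands 4.21 above the ileum, Cbr2 and 5033404E19Rik stand above both tissues, and Slc37a2 stands 2.47 below the duodenum.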

How the data were processed

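Whole-tissue poly(A) RNA of the mouse colon was sequenced, and per the labels' protocols reads were mapped with CLC Genomics Workbench. Without giving their roles, the submitters' processing notes list mm9 as build and DESeq2, DESeq 1.14.0 and kallisto 0.45.0 as tools. The authors deposited FPKM, with 1 row a gene symbol and 1 column a library, and strand is not stated. Columns named Vehicle were taken as the deficient group, since the table sets MinusD against 3xD. In all, 15 columns of per-sample values were not used, among them those of the 8-library ileum table. That table equals the duodenum table in 171528 of 171528 values, so the 7-library ileum table served. Columns are not tied to the labels' replicates, so the labels' sex and age were not assigned to them. A colon fit with Xist above Ddx3y as a covariate was also run, and it called 0 genes.

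For genes with at least 1 FPKM in 3 libraries, limma 3.58.1 in R 4.3.3 compared the groups' log2(FPKM + 1) (eBayes with trend, two-sided, Benjamini-Hochberg at 0.05). The test was also run on simulated reads, which had no naming scheme effect and no outlying library, unlike these data. FPKM values fall in steps of whole reads, which were recovered within 0.0001 of a whole number for 83.1% of 16833 genes above 0 in at least 4 libraries; voom called 0 of the 10211 tested among them. Depth leaves out the other genes. Positions are from gencode vM1 on NCBIM37.

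The members, the 53 gene lists and the naming rule were picked with earlier results of these data known. The rule takes the PCR panel and Vdr, all genes past the threshold if at most 30, the 10 smallest p in each direction, the 2 smallest p of each list, the 5 smallest interaction p per tissue, the 10 highest levels, and the 10 largest differences with groups apart; a subset of these is described, and 1 list member is not reported here. List counts carry no test. Fits that leave out the libraries with pancreas transcripts, or those that stand apart, were added after the data were seen.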

Additional observations from a re-analysis of the deposited data

Results flagged for a closer look

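In 15 of 158 groups of 4 libraries (79 genes checked, nearly all described above, each in 2 groups), 1 library lay far from the other 3 in FPKM, by Dixon's ratio of its gap to the range. Chance alone flags about 1 group in 20. Treated 3xD5720 was such a library for Cldn15 (95.2, against 132 to 140 FPKM in the other treated libraries), Tlr1 (38.4, against 23.9 to 26.1), Ostb (414, against 195 to 220) and Pla2g5 (49.97, against 12.8 to 17.0). This library also had the highest sum of exocrine pancreas markers, and the part of that in these 4 values was not tested. Treated 1 stood out for Krt7 (284.3, against 188 to 202 FPKM), Ncoa3 (6.25, against 8.76 to 9.12) and Fermt3 (0.244, against 3 libraries listed at 0). Treated 3xD5711 stood out for Aebp1 (1.18, against 3 libraries listed at 0) and Ccl25 (18.4, against 10.9 to 11.6 FPKM). In the deficient group, deficient 3 stood out for Cyp24a1 (0.0814, against 0.0107 to 0.0183 FPKM), Rara (5.91, against 7.80 to 8.12) and Klf9 (21.9, against 32.6 to 33.2). Deficient 2 stood out for Cbr2 (22.6, against 15.2 to 15.5), deficient 1 for Il2rb (1.77, against 1.53 to 1.54) and deficient minusD5718 for Slc11a2 (23.7, against 13.9 to 15.5).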

How the results depend on the processing

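The colon count of 0 called genes was 1 without treated 1 (Cyp24a1), 3 without deficient 3 (5033404E19Rik and Pfkfb4 higher, Fermt3 lower), 2 with the naming scheme as a covariate (Krt7 and Sbno1), 8 with array weights and 5 in the joint fit of 3 tissues. In the fit with the naming scheme, the scheme term itself called 7 of 12746 genes higher and 12 lower in 4-digit libraries (adjusted p under 0.05 by limma). Over the 8 fits that leave out 1 library the treatment count ran from 0 to 3. It was 0 in the other fits, among them those without filter, with 5 FPKM as the minimum, and by quantile or median-ratio rescaling. It was 0 as well by voom and on the authors' 7-library table, which leaves out deficient minusD5718. It was also 0 without the 3 libraries that carry pancreas transcripts (276 genes at an unadjusted p under 0.05) and without treated 1 and treated 3xD5720 together (931 genes); both fits have fewer libraries. Against the duodenum the count of 0 was 1 with a pseudocount of 0.1 (Fermt3) and 0 to 1 with 1 library left out (1 without treated 1, Slc10a3, and without deficient 3, Pfkfb4). Against the ileum it was 1 with the naming scheme as a covariate (Ywhaz) and 0 to 2 with 1 library left out (1 without treated 3xD5734, Ap1g1, and 2 without deficient 3). The cause of these calls was not tested.

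Of 79 genes followed (65 to 79 of them in each refit, since some were under its filter), the only direction to turn in a refit over both naming schemes was that of Vdr, from 0.05 to -0.03 with quantile normalization, -0.13 with the naming scheme as a covariate, -0.11 by voom, -0.05 without the pancreas-carrying libraries, and between -0.12 and 0.15 with single libraries left out, negative without treated 3xD5734 (-0.02) and without deficient 3 (-0.12). Within single naming schemes, which allow no test, 34 values in the serial and 24 in the 4-digit libraries moved by more than the spread between replicates, and Slc37a2, Atoh1, Nr1h4 and Reg4 (serial), Slc37a1, Plk1 and Gadd45a (4-digit) and Vdr (both) turned in sign. Without the pancreas-carrying libraries the log2 difference was 4.48 for Trpv6, 4.37 for S100g, 5.56 for Cyp24a1 and 0.93 for Atp2b1.

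No paired analysis was possible for the colon contrast because its 2 groups share fewer than 2 column numbers. In the contrasts between tissues, a replicate block on the column number gave 0 calls against the duodenum and 0 against the ileum. Same-numbered libraries correlated in their deviations at -0.05 to 0.44 between colon and duodenum and 0.04 to 0.40 between colon and ileum, and 13 of the 15 pairs were above 0.1. Xist against Ddx3y had the same order in every tissue for each of the 8 numbers, but the labels do not tie the numbers to animals, so the numbers were not taken as pairs. Depth limits genes of few reads, such as Cyp24a1 in deficient libraries (1 to 8 reads).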
